A study of Canis lupus familiaris with 40 samples.

Results

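Neutrophils and monocytes sorted from the blood of tumor-bearing dogs were compared by RNA sequencing. All libraries that the labels call C PMN, the conventional neutrophils of these dogs, were set against all that they call C Mono, the conventional monocytes, written C MONO here. They were 10 C PMN and 8 C MONO libraries, 18 of the 40 in the series. The other 22 hold the neutrophils (H PMNs) and monocytes (H MONOs) of healthy dogs and the myeloid-derived suppressor cells of tumor-bearing dogs (PMN-MDSCs and M-MDSCs), and they enter only where a result below is set beside them. The labels give cancer as the disease state of all 18 libraries and name no tumor type, treatment, age, breed or dog for any of them, so that a C PMN and a C MONO library may come from the same dog, and all were treated as independent. Both populations were gated as CD5-CD21-CD11b+ cells. C MONOs were taken from the mononuclear layer of a density gradient as MHCII+CD14+ cells. C PMNs were taken from the hyperdense pellet as MHCII-CADO48A+ cells, where CADO48A is an antibody that marks canine neutrophils, although the label of every library gives mononuclear cells as its tissue. The fraction of blood therefore differed with the population and cannot be told apart from it.

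Neutrophils are short-lived cells that leave the marrow with a segmented, condensed nucleus and with granules already filled, and they are the first phagocytes to reach a site of infection. Monocytes share a marrow progenitor with them, carry MHC class II and the lipopolysaccharide co-receptor CD14, and can still become macrophages or dendritic cells in tissue. A mature neutrophil is known to hold far less RNA than a monocyte. The marker genes of these and other blood cells could not be looked up, because the deposited tables give Ensembl identifiers without symbols and 0 of 24580 were matched to a symbol here. Genes are therefore described by number, by level and by their behaviour in other libraries, and 4 by identifier.

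The libraries were made from sub-nanogram to nanogram inputs with Smart-seq2, a protocol for little RNA. Counts on genes ranged from 4229857 to 53502663 per C PMN library and from 19130545 to 46120634 per C MONO library. C PMN 7 was the only library under 10000000 counts, and 3470 genes had at least 10 counts in it, against 9480 to 11101 in the other 9 C PMN libraries and 11097 to 12143 in the C MONO libraries. Its log2 CPM profile, where CPM is counts per 1000000 counts of the library, had a median correlation of 0.659 with the other C PMN libraries, whereas that median was between 0.899 and 0.930 for each of the other 9 and between 0.921 and 0.939 for the C MONO libraries. The main results are given with C PMN 7 and without it. The library names fall into the series GAR4079 (6 C PMN and 4 C MONO libraries) and PAT4694 (4 of each, C PMN 7 among them), and what the prefixes stand for is not given in the labels. No pair of libraries of a population agreed within sampling noise, with a chi-square per degree of freedom of at least 112.

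The RNA of C PMNs was concentrated in fewer genes than that of C MONOs. Between 6 and 161 genes held 50% of the counts of a C PMN library, against 231 to 302 genes in a C MONO library, and the populations did not overlap. The mean was 114 ± 48.0 genes (SD, n = 10) against 267 ± 23.2 (SD, n = 8), with p = 2.3e-05 in a two-sided exact permutation test over all 43758 divisions of the libraries, the smallest p that these divisions can give. Without C PMN 7 the mean of the C PMN libraries was 126 ± 31.0 genes (exact permutation p = 4.1e-05, again the smallest possible). This measure was added after seeing the data. The planned measure, the share of the 10 most abundant genes, is given below and did not pass its test.

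**Figure D1:**
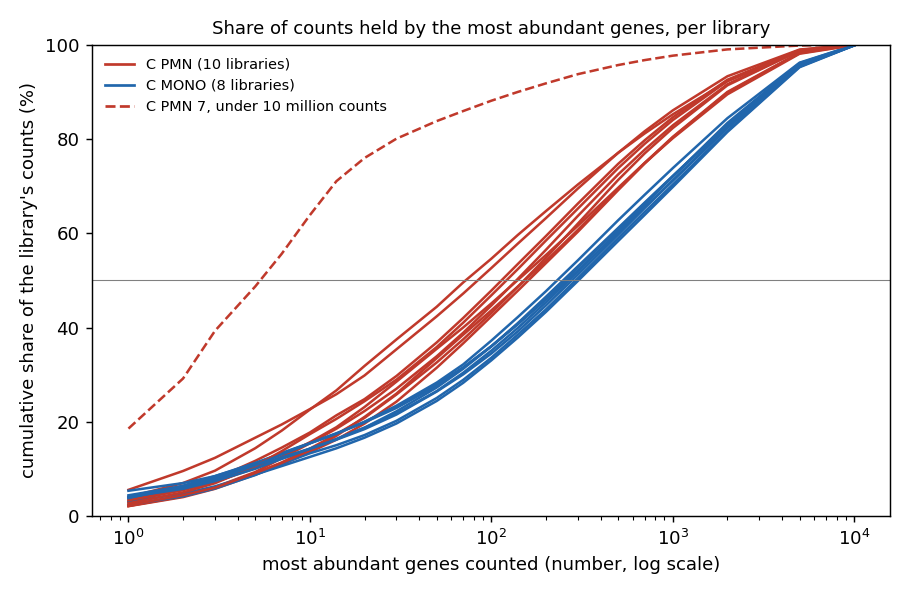
Cumulative share of a library's counts (y axis, %) held by its most abundant genes (x axis, number of genes on a log scale), with 1 line for each of the 10 C PMN and 8 C MONO libraries and a dashed line for C PMN 7. The 9 other C PMN lines reach 50% at 72 to 161 genes and the C MONO lines at 231 to 302 genes, whereas C PMN 7 reaches it at 6 genes.

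The very top of the distribution did not separate the populations in the same way. The single most abundant gene took 4.64 ± 5.02% of the counts (SD, n = 10) in C PMNs and 3.90 ± 0.883% (SD, n = 8) in C MONOs (exact permutation p = 0.961), and without C PMN 7, in which it took 18.6%, it took 3.09 ± 1.15% (n = 9, exact permutation p = 0.128). The 10 most abundant genes took 21.7 ± 15.2% (SD, n = 10) against 14.4 ± 1.07% (SD, n = 8), and this difference did not pass the test (exact permutation p = 0.0859). Without C PMN 7, in which they took 63.9%, the C PMN share was 17.1 ± 3.48% (n = 9, exact permutation p = 0.0521). Within the series the difference was 3.81 percentage points in GAR4079 (exact permutation p = 0.124) and 12.8 points in PAT4694 (exact permutation p = 0.286), and 0.802 points in PAT4694 without C PMN 7 (exact permutation p = 0.571). The 100 most abundant genes took 50.9 ± 13.7% in C PMNs and 35.2 ± 1.41% in C MONOs, which passed it (exact permutation p = 0.00016, 46.8 ± 4.28% without C PMN 7). Counts are not divided by gene length, and by the deposited TPM values, which are scaled by length within each library, the 10 most abundant genes took 25.9 ± 12.4% in C PMNs (n = 10) and 14.9 ± 1.12% in C MONOs (n = 8, exact permutation p = 0.000868).

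Fewer genes were detected in C PMNs. From 4856 to 9073 genes reached 1 CPM in a C PMN library, with a median of 8209.5, and from 10030 to 10439 in a C MONO library, with a median of 10317, so that the populations did not overlap. The means were 8047 ± 1181 (SD, n = 10) and 10255 ± 159 (SD, n = 8), a difference of -2207 genes for C PMNs over C MONOs (exact permutation p = 2.3e-05). In the 9 C PMN libraries without C PMN 7 the mean was 8402 ± 394. When every library was thinned at random to the 4229857 counts of the smallest, 7953 ± 1152 genes in C PMNs and 10181 ± 162 in C MONOs were at 1 CPM or more, a difference of -2228 genes at equal depth (exact permutation p = 2.3e-05). Counted from a single read upwards in the same thinned libraries, the difference was smaller, at 11047 ± 956 genes in C PMNs (n = 10) and 12367 ± 260 in C MONOs (n = 8, exact permutation p = 0.00153). In series PAT4694 without C PMN 7 this last difference was -737 genes and did not pass the test (3 against 4 libraries, exact permutation p = 0.286). C PMN 7 stayed apart at equal depth. It had 4856 genes at 1 CPM or more, against 7841 to 9006 in the other 9 C PMN libraries after thinning, and why was not tested. In sorted cells counted in bulk, less RNA per cell and fewer cells cannot be told apart, and a gene under 1 CPM in a C PMN library is one that was not detected at that level, not one that is absent.

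The gene with the highest mean level per length was a different one in each population. In C PMNs it had a median of 39795 TPM (from 26023 to 143782) and in C MONOs a median of 333 TPM (from 145 to 866). Its log2 fold change was 9.39 (SE 1.19, FDR 1.11e-06 by edgeR's quasi-likelihood test on the counts), and it ranked 383rd by mean TPM in C MONOs. In C MONOs the leading gene had a median of 28866 TPM (from 17006 to 39836) and in C PMNs a median of 42.1 TPM (from 13.96 to 532), with a log2 fold change of -6.44 (SE 0.92, FDR 4.67e-06 by edgeR). For both genes every library of the higher population lay above every library of the other in TPM. Both were chosen for their mean in these same libraries, which favours such a separation. On CPM, every C PMN library lay above every C MONO library for 1.93% of all genes tested, and the reverse held for 34.5%. By CPM, which is not divided by gene length, other genes had the highest means. That of C PMNs had a log2 fold change of 8.72 (SE 1.08). That of C MONOs had one of -3.00 (SE 0.28) and ranked 59th by mean CPM in C PMNs. It was the first gene by CPM in all 8 C MONO libraries, whereas 4 different genes came first among the C PMN libraries. The lists of the 10 highest mean TPM values of the populations shared 3 genes. All 10 of the C PMN list were called higher in C PMNs, whereas of the C MONO list 5 were called higher in C MONOs and 3 higher in C PMNs. Of all 11261 genes tested, 31.5% were called higher in C PMNs and 34.1% higher in C MONOs. The lists were chosen on the same libraries as the calls, which favours calls towards the population of the list.

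Most genes that could be tested differed between the populations. The counts were scaled by TMM, which sets the bulk of genes at no change, and tested by the quasi-likelihood method of edgeR. Of 11261 genes tested, 7387 were called at a false discovery rate (FDR) of at most 0.05, which is 65.6%. Of these, 3551 were higher in C PMNs and 3836 higher in C MONOs, and 3082 and 3458 of them differed by at least 2-fold (58.1% of the genes tested). Without C PMN 7, 8201 of 11376 genes were called (72.1%), 3922 higher in C PMNs (34.5%) and 4279 higher in C MONOs (37.6%), with 3128 and 3716 at 2-fold or more (60.2%).

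The division of the calls between the populations depended on the scaling. By TMM, 48.1% of the called genes were higher in C PMNs, and genes tested had a median log2 fold change of -0.03. By library size alone, 7206 genes (64%) were called, 1471 higher in C PMNs (20.4%) and 5735 higher in C MONOs, and the median was -1.08. The TMM factors ranged from 0.158 to 1.02 (median 0.785) in C PMNs and from 1.41 to 1.63 (median 1.59) in C MONOs without overlap, so that a fold change given here is about 2 times the ratio of the CPM values in favour of C PMNs. The 3551 genes higher in C PMNs held 83.8 ± 4.30% of the counts of the C PMN libraries (SD, n = 10, from 79.3 to 93.2%) and 33.3 ± 0.941% of those of the C MONO libraries (SD, n = 8). The 3836 genes higher in C MONOs held 3.47 ± 1.03% in C PMNs and 40.6 ± 1.07% in C MONOs. These shares describe genes that were chosen on the same libraries.

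At TMM scaling, the differences towards C MONOs were the larger ones. Genes higher in C PMNs had a median log2 fold change of 1.87, and 234 of the 3551 reached 32-fold, with 593 between 8-fold and 32-fold. Genes higher in C MONOs had a median of 2.56 in size, and 500 of the 3836 reached 32-fold, with 1031 between 8-fold and 32-fold. The 95% interval of the log2 fold change had a median half-width of 0.85. It lay within 2-fold of equality for 1185 genes, of which 33 were called, so that a change of 2-fold in either direction lay outside the interval for these genes at TMM scaling. Of the 3874 genes not called, 1152 had such an interval and 2722 had one that reached past 2-fold, for which a difference of that size could not be told from none.

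**Figure D2:**
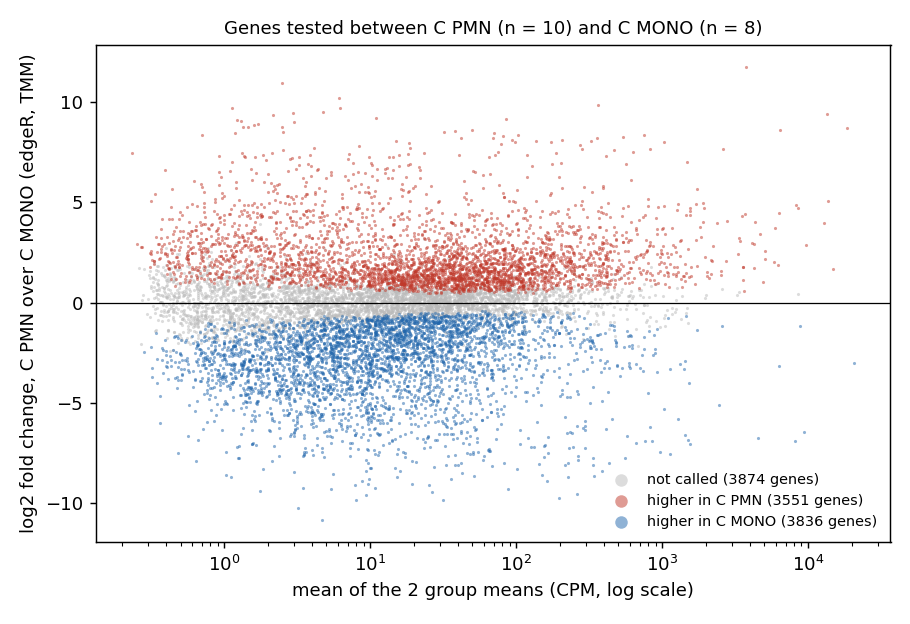
Log2 fold change of C PMN over C MONO (y axis, edgeR after TMM) against the mean of the group means (x axis, CPM on a log scale), 1 point for each of the 11261 genes tested. The 3551 genes called higher in C PMNs and the 3836 called higher in C MONOs cover all levels, and the 500 genes higher in C MONOs by 32-fold or more outnumber the 234 higher in C PMNs by as much.

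Few genes were high in all libraries of a population and low in all of the other. The level asked for was at least 10 CPM in every library of a population and under 1 CPM in every library of the other. Of the 24580 genes in the counts, 81 met it in C MONOs and 0 in C PMNs. Without C PMN 7 these numbers were 92 and 4, while 3112 genes were at 10 CPM or more in all 17 libraries (1200 in all 18). With under 0.1 CPM in place of under 1 CPM, 3 genes met it in C MONOs and 0 in C PMNs. Without C PMN 7 these were 4 and 0. On the looser measure of no overlap in CPM, 217 of the 11261 genes tested (1.93%) were higher in every C PMN library than in any C MONO library, and 3890 (34.5%) were higher in every C MONO library. On CPM scaled by TMM these were 905 genes (8.04%) and 2037 genes (18.1%). These numbers rose when C PMN 7 was left out, most of all on the side of C PMNs, where they went from 217 to 922 genes (8.1%) on CPM and from 905 to 2062 (18.1%) on TMM-scaled CPM. On the side of C MONOs they became 4022 (35.4%) and 2606 (22.9%).

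A pair of genes was taken from each direction as those with the smallest FDR among genes without overlap, with a mean of at least 10 CPM in the higher population. ENSCAFG00000016225 had 227, 189, 181, 192, 153, 193, 22.9, 128, 142 and 141 CPM in C PMN 1 to 10, and 8.55, 5.48, 9.42, 6.18, 11.1, 6.32, 9.53 and 10.6 CPM in C MONO 1 to 8. C PMN 7 was the low one at 22.9 CPM, from 97 counts. That it lay above all C MONO libraries was fixed by the choice of genes without overlap. The means were 157 ± 56.1 (SD, n = 10) and 8.39 ± 2.13 CPM (SD, n = 8), with a log2 fold change of 5.27 (SE 0.28, FDR 7.19e-11 by edgeR).

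ENSCAFG00000004565 ranged from 13.2 CPM in C PMN 7 to 182 CPM in C PMN 4, with a median of 79.4, and from 1.80 to 3.32 CPM in C MONOs, with a median of 2.49. C PMN 7 was again the low one, and the other 9 C PMN libraries lay between 43.1 CPM in C PMN 10 and 182 CPM. The means were 85.5 ± 47.2 (SD, n = 10) and 2.61 ± 0.628 CPM (SD, n = 8), with a log2 fold change of 6.04 (SE 0.33, FDR 7.19e-11 by edgeR).

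ENSCAFG00000017048 was present in C MONOs and nearly undetected in C PMNs. It had 13.2, 25.2, 18.1, 12.2, 17.9, 18.1, 32.7 and 19.5 CPM in C MONO 1 to 8, a mean of 19.6 ± 6.63 CPM (SD, n = 8). In C PMNs it had 6 counts over the 10 libraries, at most 1 in any, and 4 libraries were at 0. The ratio of the pooled CPM was 979 with a 95% counting interval from 450 to 2670. The fitted log2 fold change of -8.80 (SE 0.47, FDR 7.19e-11 by edgeR) depends on the prior count added to such low values. The other monocytic populations also held it, at 19.4 to 40.7 CPM in H MONOs (n = 3) and 6.37 to 26.8 CPM in M-MDSCs (n = 5).

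ENSCAFG00000011177 had 409, 418, 579, 457, 356, 376, 506 and 538 CPM in C MONO 1 to 8, and from 0.946 CPM in C PMN 7, which had 4 counts, to 13.8 CPM in C PMN 9, with a median of 9.74. The means were 455 ± 79.7 (SD, n = 8) and 8.75 ± 4.12 CPM (SD, n = 10), with a log2 fold change of -4.71 (SE 0.25, FDR 7.19e-11 by edgeR). It was thus detected in C PMNs as well, at 4.36 to 13.8 CPM in the 9 libraries other than C PMN 7.

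**Figure D3:**
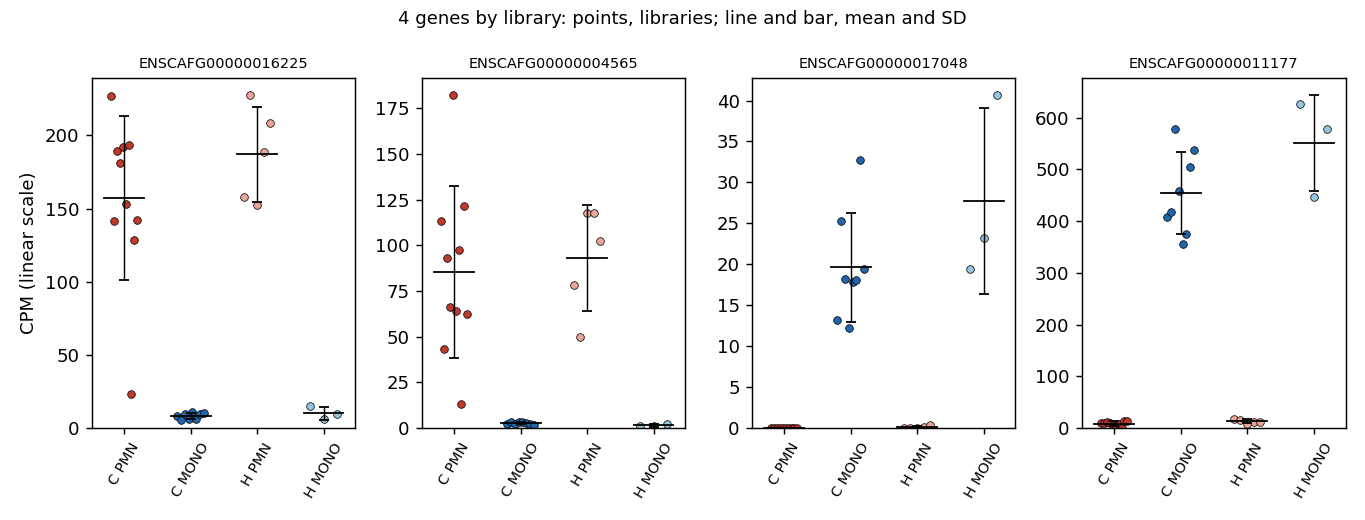
CPM (y axis, linear, each panel on its own scale) of the 4 genes named above in tumor-bearing dogs (10 C PMN and 8 C MONO libraries) and healthy dogs (5 H PMN and 3 H MONO libraries), with a point for each library and the mean with its SD. In each panel the libraries of the higher lineage lie above all of the other, in tumor-bearing and in healthy dogs. For the tumor-bearing dogs this was fixed by the choice of the genes. The low C PMN point of the first panel, 22.9 CPM, is C PMN 7.

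The identity of the sorted cells was checked with lists drawn from the healthy dogs, which are other animals, in place of named markers. A list of 50 genes for each lineage was taken as the most abundant of those at 50 CPM or more in the healthy population, at least 50-fold above the other healthy population and without overlap. This rule was met by 51 genes for neutrophils and 210 for monocytes. The neutrophil list thus holds nearly all of them and the monocyte list only the most abundant. The neutrophil list took from 4.86 to 27.9% of the counts of a C PMN library, with a median of 7.47%, and from 0.0301 to 0.202% in C MONOs. The highest value was that of C PMN 7, and the next was 15.6% in C PMN 1. The monocyte list took from 9.57 to 13.05% of the counts of a C MONO library, with a median of 11.8%, and from 0.0270 to 0.351% in C PMNs, where C PMN 7 was again the highest. By these shares all 18 libraries lay with the lineage of their label. For C PMN 7 the correlations set the lineages less far apart. The median correlation of its log2 CPM profile was 0.659 with the other C PMN libraries and 0.611 with the C MONO libraries. Fewer genes of both lists were detected in it. At 10 counts or more it held 37 of the 50 genes of the neutrophil list, against all 50 in every other C PMN library. Of the monocyte list it held 33, against 43 to 50 in the others. A limit of 10 counts is a higher CPM in this library than in the deeper ones, so that these numbers do not bear on its lineage. Set against the median of the right lineage, the list of the other lineage stood at 0.229 to 2.98% in C PMNs and at 0.403 to 2.70% in C MONOs, and whether the remainder is carried-over cells was not tested.

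**Figure D4:**
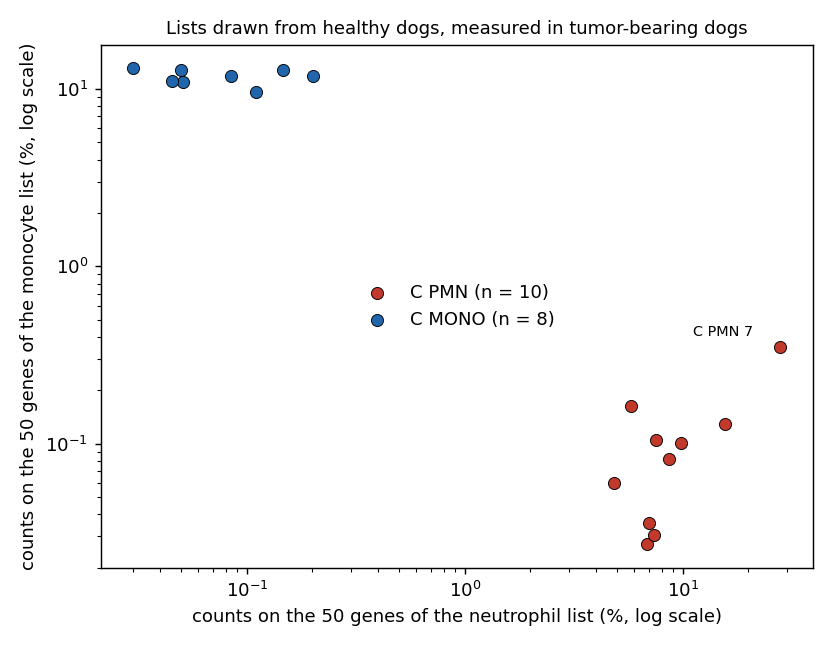
Share of a library's counts on the 50 genes of the neutrophil list (x axis, %) and on the 50 genes of the monocyte list (y axis, %), both on log scales, with a point for each of the 10 C PMN and 8 C MONO libraries. C PMNs lie between 4.86 and 27.9% on the x axis and C MONOs between 9.57 and 13.05% on the y axis, and C PMN 7 is the point farthest to the right.

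In the test between C PMNs and C MONOs, all 50 genes of the neutrophil list were called higher in C PMNs, with a median log2 fold change of 7.66 (from 4.49 to 11.73). Of the monocyte list, 48 were called higher in C MONOs and 2 were not called, with a median of -6.32 (from -9.56 to -0.93). The median over all genes tested was -0.03, and 31.5% of them were called higher in C PMNs and 34.1% higher in C MONOs. On CPM, 31 genes of the neutrophil list and all 50 of the monocyte list were without overlap. Of all genes tested, 1.93% were without overlap and higher in C PMNs, and 34.5% without overlap and higher in C MONOs.

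C PMN libraries varied more among themselves than C MONO libraries. The common biological coefficient of variation of edgeR was 0.807 in C PMNs and 0.452 in C MONOs, each fitted alone, and it was 0.672 in C PMNs without C PMN 7. The median SD of a gene's log2 CPM over the libraries was 1.41 in C PMNs, 0.745 in C PMNs without C PMN 7 and 0.470 in C MONOs. Of the genes tested, 92% had a larger SD in C PMNs, and 76.4% did so without C PMN 7. The joint fit used a value of 0.659 for both populations.

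The difference between neutrophils and monocytes was set beside that in healthy dogs, in which 5 H PMN and 3 H MONO libraries were compared by the same test and share no library with the tumor-bearing dogs. In healthy dogs 7600 of 12557 genes were called (60.5%). Of the 7109 called genes that were tested in both, 6977 (98.1%) had the same direction in tumor-bearing dogs, and 7054 of 7137 (98.8%) did so without C PMN 7. Genes called in both numbered 6112, which is 86.0% of those called in healthy dogs and 83.0% of those called in tumor-bearing dogs, and 6110 of them had the same direction. Across the 11210 genes tested in both, the log2 fold changes had a Pearson's r of 0.929 and a Spearman's rho of 0.931, given as a description, since genes are not independent replicates and each set of fold changes carries the scaling of its own libraries.

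No gene passed the test of a lineage difference that itself differed between tumor-bearing and healthy dogs. Of 14467 genes in the edgeR fit of all 40 libraries, 0 were called, 600 had an unadjusted p under 0.05 and the lowest FDR was 0.621, and limma voom with quality weights also called 0, with 1634 at an unadjusted p under 0.05. The 95% interval of this difference had a median half-width of 1.94 on the log2 scale. It lay within 2-fold for 2.54% of the genes and within 4-fold for 37.7%, so that for most genes a difference of 4-fold between tumor-bearing and healthy dogs could not be told from none. All healthy libraries belong to series GAR4079, and within that series 1 of 13962 genes was called (0.00716%).

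The difference was also present in each library series on its own. In series GAR4079, 7562 of 11972 genes were called (63.2%), 3530 higher in C PMNs and 4032 higher in C MONOs. In series PAT4694, with C PMN 7, 3511 of 10981 were called (32%), and 5643 of 11611 without it (48.6%). Of the genes called in GAR4079 and tested in both, 6736 of 7065 (95.3%) had the same direction in PAT4694, and 7221 of 7299 (98.9%) did so without C PMN 7. Genes called in both numbered 3290, which is 46.6% of those called in GAR4079 and 94.2% of those called in PAT4694, and without C PMN 7 they numbered 5110, which is 70.01% and 91.8%. None of them differed in direction in either case. By edgeR, 0 of 12586 genes were called for a lineage difference that differed between the series, with 1070 at an unadjusted p under 0.05, and limma voom called 0 with 727. The median half-width of that difference was 1.78 on the log2 scale. Between the series and within a population, 29 of 13205 genes were called in C PMNs and 5 in C MONOs without C PMN 7.

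**Figure D5:**
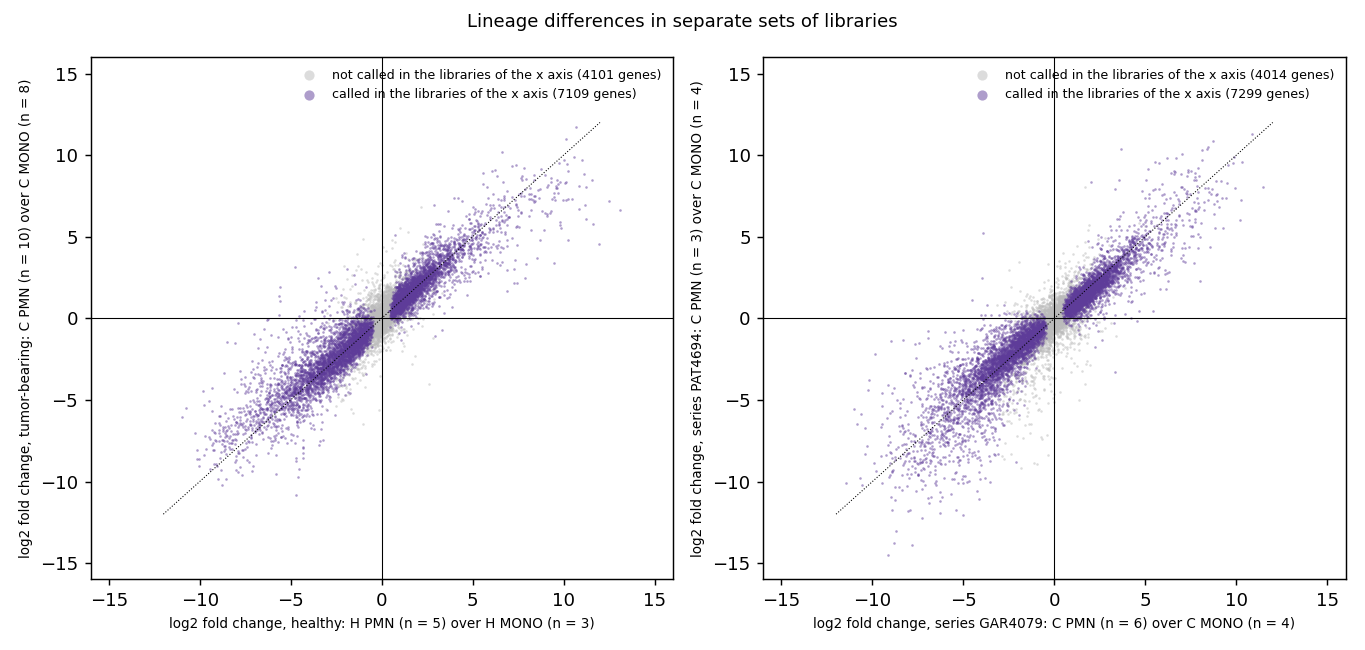
Log2 fold change of neutrophils over monocytes in pairs of library sets that share no library, 1 point for each gene tested in both, with a dotted line of equality. On the left, tumor-bearing dogs (y axis) against healthy dogs (x axis), where 98.1% of the genes called in healthy dogs had the same direction. On the right, series PAT4694 without C PMN 7 (y axis) against series GAR4079 (x axis), where 98.9% had.

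Set beside the MDSCs of tumor-bearing dogs, the conventional cells stood further apart. Of 14467 genes, edgeR called 1683 (11.6%) for a difference of C PMN over C MONO that differed from that of PMN-MDSC over M-MDSC, 583 (4.03%) with a higher and 1100 (7.6%) with a lower log2 fold change in the conventional cells. By library size alone these were 199 and 1118. Without C PMN 7 and PMN-MDSC 9, the libraries under 10000000 counts, 2814 of 14416 genes were called (19.5%), 1185 higher and 1629 lower. A fit of the 4 populations alone called 1098 genes and limma voom 4058, and in each of these fits the lower ones were the more numerous. The genes were divided by their call in healthy dogs. The healthy libraries are not compared in this contrast, but they are part of the fit of all 40 libraries that it was taken from. They enter its gene filter, its scaling and its estimate of spread. Of 3584 genes higher in H PMNs, 457 were called with a higher and 31 with a lower log2 fold change in conventional cells. Of 4009 genes higher in H MONOs, 13 were called with a higher and 764 with a lower one. Of the 4944 genes not called in healthy dogs, 43 and 184 were so called. Over all genes of these groups, called or not, the median difference in log2 fold change was 0.77, -1.26 and -0.10. Among the 3291 genes higher in H PMNs that were tested in all 3 pairs, the median log2 fold change was 1.74 in healthy dogs, 1.82 between C PMNs and C MONOs and 0.99 between the MDSC subsets. Among the 3686 genes higher in H MONOs it was -2.60, -2.42 and -1.16. The labels do not say which of the C PMN, C MONO and MDSC libraries come from the same dog, and both MDSC subsets were sorted from the mononuclear layer, as C MONOs were and C PMNs were not.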

How the data were processed

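The authors sorted the cells, made Smart-seq2 and Nextera XT libraries, aligned paired reads to CanFam3.1 and the ERCC spike-ins by HISAT2, marked duplicates with Picard 1.92 (removal is not stated) and counted uniquely mapped reads on exons of Ensembl genes with featureCounts of Subread 1.5.0. The deposited counts are not normalized, and the deposited CPM and TPM values are the authors' scaling of them, TPM also by gene length. The CPM table equalled counts over their total.

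Libraries were grouped by their sample type label. The labels give 1 C PMN library and 1 PMN-MDSC library more than the study's text counts. The text does not say which were left out, and all 10 C PMN and all 9 PMN-MDSC libraries were kept. Counts were tested with edgeR 4.0.16 (quasi-likelihood, TMM, filterByExpr at its defaults, FDR of at most 0.05 by Benjamini-Hochberg over all genes tested, with the SE taken as the log2 fold change over the root of F). Differences between lineage differences were contrasts of the fit of all 40 libraries, and that between series an interaction. Single values per library were compared by exact permutation. Alternatives used DESeq2 1.42.0 and limma 3.58.1 in R 4.3.3, and Python 3.11.15 with scipy 1.17.1. The tests were tried on simulated data in which few genes changed, evenly in both directions. Most genes tested here were called, so that this trial cannot check the scaling. Counting intervals cover counting error only, since PCR reads without molecular identifiers are not independent molecules, and p-values measure the spread between these libraries. The 4 identifiers follow a rule set for genes without symbols, namely the smallest FDR with a fold change of at least 2, no overlap and 10 CPM. Lists of marker and pathway genes were not analysed here, for want of symbols. Members and lists were chosen with earlier results of these data known. Alternatives without C PMN 7 in series PAT4694, under voom and under library size, and thinning with either limit of detection, the TMM-scaled overlap and the genes that hold 50% of the counts were added after seeing the data.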

Additional observations from a re-analysis of the deposited data

Results flagged for a closer look

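A test of a single extreme value (Dixon's test at 95%, which chance passes about 1 time in 20) was run 18 times. Each measure was tested once among the C PMN and once among the C MONO libraries. The limit was passed 5 times, all among the C PMN libraries. Each time it was C PMN 7, the library with 4229857 counts, that lay far from the other 9. Its 10 most abundant genes held 63.9% of the counts, against 13.6 to 22.7% in the others, and 4856 genes reached 1 CPM in it, against 7968 to 9073. The neutrophil list took 27.9% of its counts, against 4.86 to 15.6%, and the monocyte list 0.351%, against 0.0270 to 0.163%. ENSCAFG00000016225 had 22.9 CPM in it, against 128 to 227 CPM. No C MONO library was set apart in these measures.

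The lineage difference of the conventional cells differed from that of the MDSC subsets in 1683 genes by a contrast of the fit. Within series GAR4079, 1 gene differed in its lineage difference between tumor-bearing and healthy dogs (FDR 0.0157 by edgeR), and it was not called in the fit of all libraries.

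The ERCC spike-ins, which no comparison uses, had up to 42 counts in a library, and 10 of the 18 libraries had more than the 3 counts that a count of 0 allows. They took at most 0.000168% of the counts of these libraries.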

How the results depend on the processing

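The number of genes called, 7387 in the report, stayed within 1.5 times of it under 32 of 34 alternatives. It was 2017 with at least 10 counts in every library, where 3107 genes were tested, and 3511 in series PAT4694 alone, where 8 libraries were used. Leaving out each library in turn gave 7095 to 8201. Without any filter 10617 of 20656 genes were called, and voom called 8557. At a fold change of at least 2, 6540 genes were called, 9971 without a filter, 1586 with at least 10 counts in every library and 3511 in PAT4694 alone, and 6357 to 6844 with a library left out. The share of called genes higher in C PMNs, 48.1%, was 20.4% by library size alone and 25.4% by library size without C PMN 7, and 44.6 to 48.4% with a library left out.

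For the contrast with healthy dogs 0 genes were called in 5 of 6 alternatives and 1 in series GAR4079 alone. For the contrast with MDSCs, 1683 genes became 1098 in a fit of its 4 populations alone, 2814 without the libraries under 10000000 counts and 4058 by voom. The contrast between series stayed at 0 in its 3 alternatives. The cause of these changes was not tested.

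The share of the 10 most abundant genes was 7.33 percentage points higher in C PMNs, which passed no threshold. It was 15.7 points higher for the 100 most abundant genes and 10.95 points for TPM, which passed by exact permutation (p = 0.00016 and p = 0.000868). With a library left out it was 2.65 to 8.23 points (exact permutation p from 0.0357 to 0.209), and it passed without C PMN 3, 4 or 8 in turn. In series PAT4694 without C PMN 7 it was 0.802 points (exact permutation p = 0.571). The number of genes at 1 CPM kept its direction and its call under 25 of 26 alternatives (-2321 to -1853 genes with a library left out). The exception was -737 genes (exact permutation p = 0.286) for genes with at least 1 count at equal depth in series PAT4694 without C PMN 7, where 7 libraries were used. The 4 identifiers kept theirs under every alternative in which they were tested, 2 of them not being tested with at least 10 counts in every library. No paired analysis was possible because the labels carry no replicate numbers and name no dog. Depth was lowest in C PMN 7, in which genes under about 1 CPM rest on fewer than 5 counts. It also held fewer genes at 1 CPM than the other 9 C PMN libraries thinned to its depth (4856 against 7841 to 9006).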
